A study of Mus musculus with 9 samples.

Results

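This section follows 10 genes for proteins that the liver secretes to carry other molecules in plasma. They are albumin (Alb), alpha-fetoprotein (Afp), transthyretin (Ttr) and the apolipoproteins Apoa1, Apoa2, Apob, Apoc3, Apoe, Apoh and Apom. They were chosen by symbol. All 10 were present among the 24419 symbols of the count table, and 9 of them were among the 2639 genes that passed the filter on low counts. Apoc3 did not pass.

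Bulk RNA was measured in liver of male FVB mice on a normal diet, 3 per group. CTRL mice were 13, 13 and 17 weeks old. The labels do not say what they received, while the series' design text describes a control with wild-type NFE2L2 and T41A beta-catenin. That text gives an age at injection of 6 to 8 weeks and a time of 14 weeks after injection. Together these exceed the listed age of every CTRL and MODEL1 mouse and of the youngest MODEL2 mouse. MODEL1 mice, each 18 weeks old, carried NFE2L2 G31A with CTNNB1 T41A, altered forms of the transcription factor NRF2 and of beta-catenin. MODEL2 mice, 19, 20 and 22 weeks old, carried NFE2L2 T80K with CTNNB1 T41A. Plasmids for the 2 altered proteins (20 µg of either one) were injected hydrodynamically through the tail vein in a volume of 2 ml, together with the Sleeping Beauty transposase. This method inserts the cargo into the genome of only part of the hepatocytes. The promoters on the plasmids, and whether tumours or surrounding liver were taken, are not given in the sources used here. Both models share the CTNNB1 change, both were older than CTRL and both were injected, which the labels do not say of CTRL, so these differences cannot be told apart from the effect of NFE2L2 in a comparison with CTRL.

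Hepatocytes make most plasma proteins. Albumin is the most abundant of them and binds fatty acids and drugs. Alpha-fetoprotein is its fetal counterpart, encoded next to it and used as a marker of hepatocellular cancer. Apolipoproteins coat lipoprotein particles. Apolipoprotein B is the scaffold of very-low-density lipoprotein (VLDL), and apolipoprotein A-I is that of high-density lipoprotein (HDL).

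Libraries held 219504 to 325177 counts, and 3 counts, which is as much as an observed 0 permits, stood for 9.23 to 13.7 CPM (counts scaled to the library total). Alb was the 190th symbol by summed counts and ranked between 100th and 455th in single libraries, whereas Apoe ranked 29th. The 10 listed hepatocyte markers all had counts. The globin genes Hba-a1, Hba-a2, Hbb-bs and Hbb-bt had none in any library. Symbols that share exon bases with a gene on the opposite strand were 24.1% of the 23375 symbols placed directly on the genome and held 74.9% to 82.5% of their counts, depending on the library. Which strand the counted reads came from is not stated, so a value below is what was assigned to a symbol, and its relation to the messenger RNA was not tested. Rn45s, the ribosomal RNA precursor, held 10.3% of counts in CTRL replicate 1, 13.4% in MODEL1 replicate 1 and 8.62% in MODEL1 replicate 3, against 2.20% to 6.89% in the other libraries.

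Alb and Apoa1 moved together in both models, Afp lies beside Alb and did not, and Apob moved the other way in MODEL1 alone. The sequences upstream of these 4 members are shown for that reason. They are from the RefSeq promoter table (GRCm38.p6, all on the + strand) and end before the first annotated start. Capitals mark the letters of 5 motifs searched on both strands: TATAAA (known as the TATA box), CCAAT (the box of that name), AGGTCA (part of the site of HNF4), TGACNNNGC (core of the antioxidant response element that NRF2 binds) and, last, CTTTGA (core of the TCF site that beta-catenin's partners bind).
Alb, chr5:90460620-90460869: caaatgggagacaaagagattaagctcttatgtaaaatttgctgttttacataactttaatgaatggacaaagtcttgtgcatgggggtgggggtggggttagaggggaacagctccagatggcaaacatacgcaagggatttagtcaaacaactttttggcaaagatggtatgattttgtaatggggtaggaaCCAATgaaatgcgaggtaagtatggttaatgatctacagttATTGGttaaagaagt
Afp, chr5:90490464-90490713: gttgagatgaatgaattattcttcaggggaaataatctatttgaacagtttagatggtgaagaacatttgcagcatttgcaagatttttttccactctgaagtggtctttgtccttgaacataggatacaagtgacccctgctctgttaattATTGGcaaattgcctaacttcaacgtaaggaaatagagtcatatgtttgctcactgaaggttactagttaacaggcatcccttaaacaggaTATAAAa
Apoa1, chr9:46228380-46228579: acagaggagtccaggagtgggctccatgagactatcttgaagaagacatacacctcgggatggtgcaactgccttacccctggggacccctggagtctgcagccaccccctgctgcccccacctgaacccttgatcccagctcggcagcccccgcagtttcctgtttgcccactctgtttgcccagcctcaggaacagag
Apob, chr12:7977427-7977647: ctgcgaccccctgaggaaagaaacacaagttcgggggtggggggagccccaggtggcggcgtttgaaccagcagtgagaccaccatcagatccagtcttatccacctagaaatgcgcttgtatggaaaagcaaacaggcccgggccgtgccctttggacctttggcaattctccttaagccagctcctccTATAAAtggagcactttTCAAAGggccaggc
The table held promoters for 8 of the 10 members, and the windows searched were its full 300 bases. CCAAT was present for 3 of the 8 genes (Alb, Afp and Apoa2), against 37.4% of all 32851 promoters. In Alb it began 56 bases before the RefSeq start, with another match 15 bases before it on the other strand, and in Afp 98 bases before the start on the other strand. TATAAA, present for Afp, Apoa2, Apob and Apoe, was in 13.6% of all promoters. AGGTCA (16.3% of all promoters) was present for Apoa2 and Apoh. CTTTGA (16%) was found for Apob, 43 bases before the start. TGACNNNGC (12.4%) was found for none of the 8 genes. No motif searched was in the Apoa1 window. The motifs do not overlap each other in the 4 windows shown, and a match is a run of letters, not a measured site.

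In MODEL1, 2 members fell (Alb and Apoa1) and 1 rose (Apob), while the other 6 tested members did not pass the test. The 3 called members of 9 tested compare with 22.8% of all tested genes called in this comparison, 11.9% higher and 11.0% lower. The median log2 fold change was -0.29 over the 9 and 0.00 over all tested genes. In MODEL2, Alb and Apoa1 fell and no member rose, 2 of 9 against a background of 13.3% (8.30% higher and 4.96% lower). Between the models 1 of 9 differed, Apob, which was lower in MODEL2, against 7.28% of all tested genes (3.87% higher and 3.41% lower). MODEL1 and MODEL2 were compared with the same 3 CTRL libraries, so their shared calls are not independent.

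**Figure D1:**
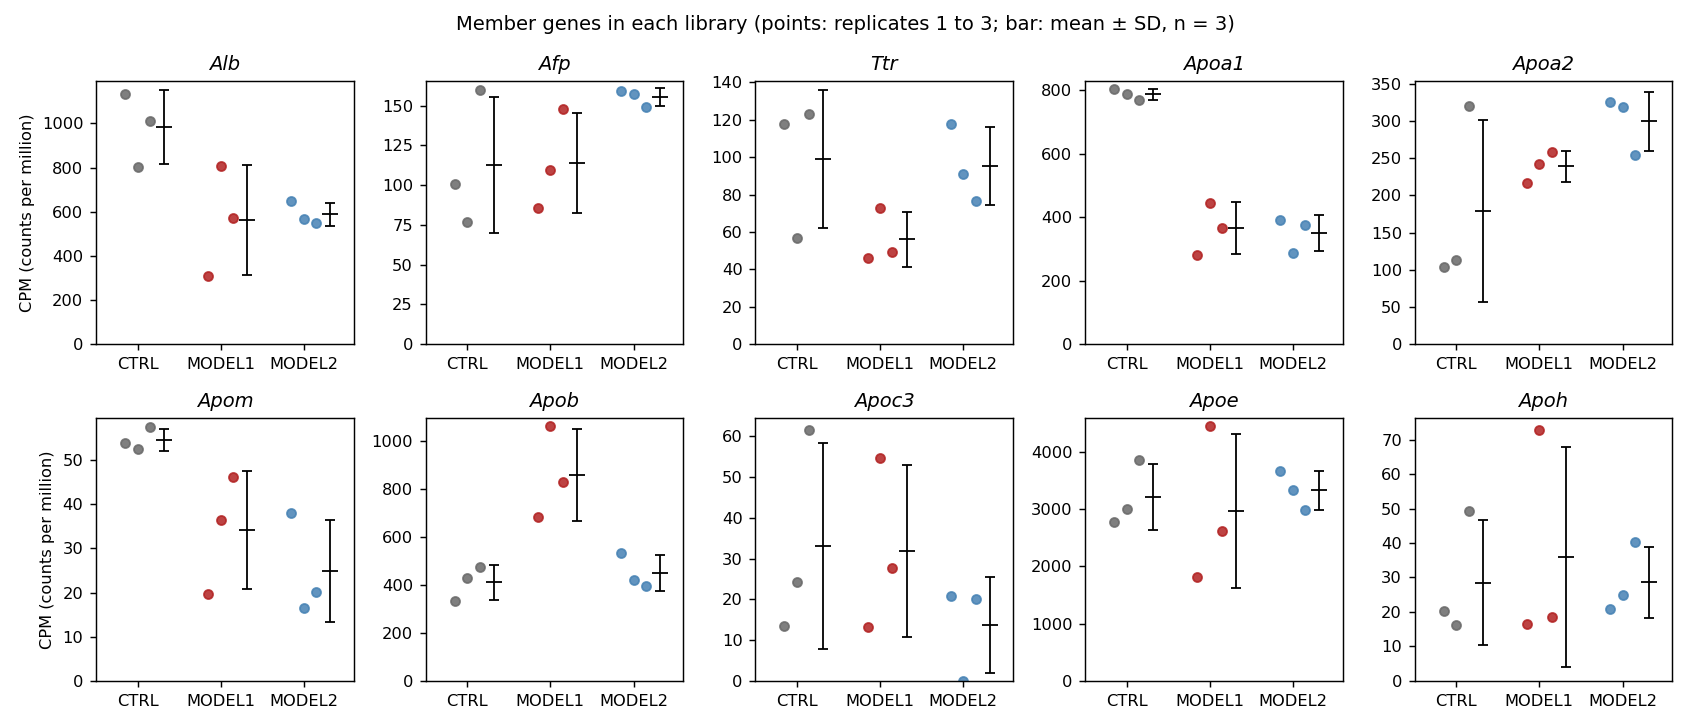
Level of each of the 10 genes in CPM (vertical axes, from 0) in the 3 libraries of CTRL, MODEL1 and MODEL2, with mean ± SD beside the points. For Apoa1 all CTRL points, at 771 to 803 CPM, lie above every model point, and for Apob all MODEL1 points, at 684 to 1061 CPM, lie above every other point.

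Albumin (Alb, chromosome 5, 90460897 to 90476602) is described first as the main carrier. It held 1133, 804 and 1013 CPM in CTRL replicates 1 to 3, on 337, 199 and 247 counts. In MODEL1 it held 309, 806 and 572 CPM, on 94, 177 and 186 counts. In MODEL2 it held 648, 568 and 547 CPM, on 187, 137 and 136 counts. Every MODEL2 library lay below every CTRL library, while MODEL1 replicate 2 lay just above CTRL replicate 2. The log2 fold change was -0.99 ± 0.24 (SE) in MODEL1 (adjusted p = 0.00406) and -0.85 ± 0.24 in MODEL2 (adjusted p = 0.0199). Between MODEL2 and MODEL1 it was 0.14 ± 0.24 (adjusted p = 0.822). In bulk tissue fewer hepatocytes and less RNA per hepatocyte cannot be told apart. Whether the counts assigned to Alb follow its messenger RNA was not tested, since the strand of the counted reads is not stated. Among the 3 libraries with the most Rn45s, CTRL replicate 1 stood at 1133 CPM against 309 and 572 in MODEL1. Among the rest, MODEL1 replicate 2 at 806 CPM lay within the range of CTRL. Without those 3 libraries, which leaves MODEL1 with 1 library whose spread is taken from the other groups, the changes were -0.47 (adjusted p = 0.441) in MODEL1 and -0.67 (0.106) in MODEL2. The MODEL2 call was also lost without CTRL replicate 1 (0.120), MODEL2 replicate 2 (0.0860) or MODEL2 replicate 3 (0.0995). With age as a covariate the changes were -0.76 ± 0.35 (0.194) and -0.47 ± 0.49 (0.765). The ages of the 3 groups do not overlap, and all MODEL1 mice share the same age. Here and below, the fit with age therefore has wider errors and cannot tell age from group.

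Alpha-fetoprotein (chromosome 5, 90490737 to 90508907), the fetal member of the albumin family, did not pass the test in any comparison. It held 101, 76.7 and 160 CPM in CTRL, 85.5, 109 and 148 in MODEL1 and 159, 158 and 149 in MODEL2. Those of MODEL2 lay close together and above those of MODEL1, and within the range of CTRL, whose replicate 3 was the highest of all 9. The log2 fold change was -0.10 ± 0.33 in MODEL1 (adjusted p = 0.875), 0.38 ± 0.32 in MODEL2 (0.507) and 0.47 ± 0.32 between the models (0.446). The ratio of Alb to Afp counts, which does not depend on library size, was 9.35 ± 2.64 in CTRL (SD, n = 3), 4.96 ± 2.1 in MODEL1 and 3.78 ± 0.248 in MODEL2. On the opposite strand the antisense gene Gm43449 overlaps Afp in its introns and shares no exon base with it.

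Transthyretin carries thyroid hormone and, with retinol-binding protein, vitamin A. Ttr (chromosome 18, 20665280 to 20674321) held 118, 56.5 and 123 CPM in CTRL, 46.0, 72.9 and 49.2 in MODEL1 and 118, 91.2 and 76.5 in MODEL2. MODEL1 overlapped CTRL only through CTRL replicate 2. The log2 fold change was -0.98 ± 0.39 in MODEL1, as large as that of Alb but with a wider error on 46 counts, and its adjusted p was 0.0807. Without CTRL replicate 2 it was -1.24 (adjusted p = 0.0280). In MODEL2 it was -0.15 ± 0.38 (adjusted p = 0.847). All MODEL2 libraries lay above all MODEL1 libraries, with a log2 difference of 0.83 ± 0.40 that did not pass (0.239).

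Of the HDL proteins, apolipoprotein A-I, which activates cholesterol esterification in plasma, gave the clearest difference. Apoa1 (chromosome 9, 46228580 to 46230466) held 803, 787 and 771 CPM in CTRL, the tightest of the CTRL groups among the members relative to its level. It held 283, 446 and 366 CPM in MODEL1 and 392, 286 and 374 in MODEL2. Neither model overlapped CTRL. Apoa1 fell by 1.27 ± 0.22 log2 units in MODEL1 (adjusted p = 0.000135) and by 1.28 ± 0.22 in MODEL2 (0.000272). The models differed by -0.01 ± 0.22 (adjusted p = 0.993). The MODEL1 libraries were lower both among the 3 with the most Rn45s, at 283 and 366 against 803 CPM, and among the rest, at 446 against 787 and 771. Without the 3 libraries the MODEL1 change was -1.12 (adjusted p = 0.0583), and with age as a covariate the MODEL2 change was -0.91 (0.425).

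Apolipoprotein A-II, the second HDL protein, did not follow Apoa1. Apoa2 (chromosome 1, 171225054 to 171226379) held 104, 113 and 320 CPM in CTRL, 217, 241 and 258 in MODEL1 and 326, 319 and 254 in MODEL2. CTRL replicate 3, the oldest CTRL mouse, stood within the range of MODEL2, while the other CTRL libraries lay below every model library. The log2 fold change was 0.33 ± 0.32 in MODEL1 (adjusted p = 0.516) and 0.69 ± 0.32 in MODEL2 (0.177). Without CTRL replicate 3 it was 0.90 (0.0408) and 1.28 (0.00704). With age as a covariate it was -0.23 (0.825) and -0.26 (0.910). The ratio of Apoa1 to Apoa2 counts was 7.71, 6.96 and 2.41 in CTRL, 1.30, 1.85 and 1.42 in MODEL1 and 1.20, 0.896 and 1.48 in MODEL2, so no model library reached the lowest CTRL value. In RefSeq, but not in GENCODE, the span of Apoa2 overlaps that of Tomm40l by 951 bases. Tomm40l, which lies on the other strand, held 14522 counts over the 9 libraries against 574 for Apoa2, and its log2 fold change was -1.62 ± 0.21 in MODEL1 (adjusted p = 5.5e-06) and -1.36 ± 0.21 in MODEL2 (9.6e-05). Its part in the values of Apoa2 was not tested.

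Apolipoprotein M binds sphingosine-1-phosphate on HDL. Apom (chromosome 17, 35128997 to 35132050) held 53.8, 52.5 and 57.4 CPM in CTRL, 19.7, 36.4 and 46.1 in MODEL1 and 38.1, 16.6 and 20.1 in MODEL2, on 4 to 16 counts a library. Both models lay below CTRL without overlap. The test did not pass at these counts, with a log2 fold change of -0.82 ± 0.52 in MODEL1 (adjusted p = 0.285) and -1.20 ± 0.54 in MODEL2 (0.167). In MODEL1 the libraries of 3 tested members did not overlap those of CTRL (Apoa1, Apom and Apob), as was true of 35.2% of all tested genes (13.4% lower and 21.8% higher). In MODEL2 they were Alb, Apoa1 and Apom, against 30.8% (9.70% lower and 21.1% higher). Between the models they were Afp, Ttr and Apob, against 26.3% (12.9% lower and 13.4% higher).

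Apob (chromosome 12, 7977648 to 8016835) was the member that separated the models. It held 333, 428 and 476 CPM in CTRL and 684, 1061 and 830 in MODEL1, on 99, 106 and 116 against 208, 233 and 270 counts. In MODEL2 it held 534, 423 and 394 CPM, on 154, 102 and 98 counts, and overlapped CTRL. Apob rose by 0.91 ± 0.22 log2 units in MODEL1 (adjusted p = 0.00338), whereas its log2 fold change in MODEL2 was 0.03 ± 0.22 (0.941). In MODEL2 against MODEL1 it fell by 0.87 ± 0.22 log2 units (adjusted p = 0.0155). The rise in MODEL1 was seen among the 3 libraries with the most Rn45s, at 684 and 830 against 333 CPM, and among the rest, at 1061 against 428 and 476. Without those 3 libraries it was 0.92 (adjusted p = 0.0928). The difference between the models kept its direction in all 19 alternatives but passed in 11 of them, and lost its call without MODEL1 replicate 2 (0.0703), MODEL1 replicate 3 (0.0562), MODEL2 replicate 2 (0.0775) or MODEL2 replicate 3 (0.102).

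**Figure D2:**
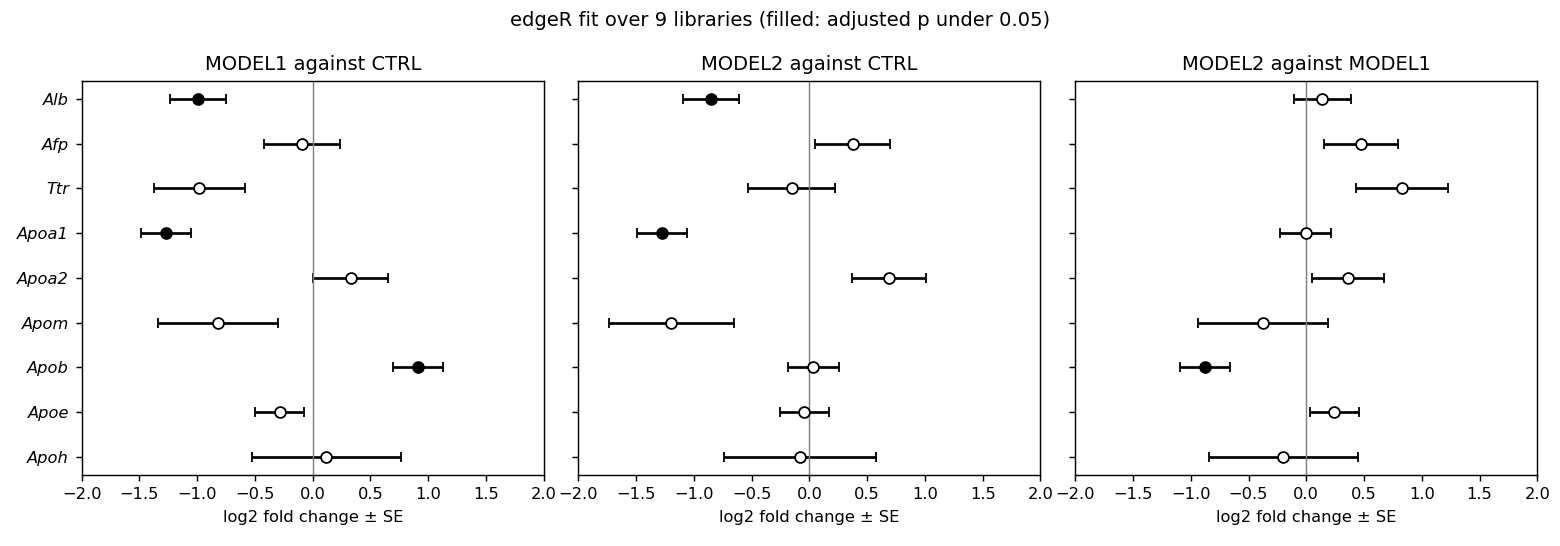
log2 fold change ± SE (horizontal axes) of the 9 tested genes in the 3 comparisons, from one edgeR fit over 9 libraries. Filled points passed an adjusted p of 0.05: Alb, Apoa1 and Apob in MODEL1, Alb and Apoa1 in MODEL2, and Apob between the models.

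The remaining apolipoproteins of VLDL and its remnants gave no call. Apolipoprotein E, the ligand by which the liver takes up remnants, was the most counted member. Apoe (chromosome 7, 19696109 to 19699188) held 2776, 2996 and 3863 CPM in CTRL, 1818, 4455 and 2626 in MODEL1 and 3670, 3337 and 2991 in MODEL2. MODEL1 spread on both sides of the other groups, with replicate 2 the highest and replicate 1 the lowest of all 9 libraries. The log2 fold change was -0.29 ± 0.21 in MODEL1 (adjusted p = 0.374), -0.04 ± 0.21 in MODEL2 (0.920) and 0.24 ± 0.21 between the models (0.583). Without MODEL1 replicate 2 the MODEL1 change was -0.59 (0.0417). Apolipoprotein C-III inhibits lipoprotein lipase. Apoc3 (chromosome 9, 46232933 to 46235636) held 25, 25 and 11 counts in CTRL, MODEL1 and MODEL2. MODEL2 replicate 2 had 0, which allows up to 12.4 CPM. Against CTRL the ratio of scaled counts was 0.836 (0.461 to 1.52) for MODEL1 and 0.415 (0.184 to 0.875) for MODEL2, with overlapping libraries in both. Apoa1 lies 2467 bases from Apoc3, on the opposite strand.

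Apolipoprotein H, or beta-2-glycoprotein I, binds anionic phospholipids. Apoh (chromosome 11, 108343354 to 108414396) was at 16.2 to 49.2 CPM in CTRL, 16.4 to 72.9 in MODEL1 and 20.8 to 40.3 in MODEL2, on 4 to 16 counts a library. The groups overlapped, and the log2 fold changes were 0.12 ± 0.65 in MODEL1 (adjusted p = 0.924) and -0.08 ± 0.66 in MODEL2 (0.952). Apoh was the 1 member with an exon overlap on the opposite strand, 30 bases shared with Prkca, which held 1 count in all.

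Compared per kilobase of exon, the only scale on which different genes are set side by side here, the order of mean levels in CTRL was Apoe, Apoa1, Alb, Apoa2, Ttr, Apom, Afp, Apoc3, Apob and Apoh. These are levels of counts assigned to each symbol, divided by its exon length, and their relation to messenger RNA was not tested. Apoe stood at 1502 ± 269 CPM per kilobase (SD, n = 3), Apoa1 at 637 ± 13.1 and Alb at 420 ± 71.1. The libraries of Apoe, Apoa1 and Alb did not overlap. Apoa2 at 333 ± 227 overlapped Alb, its neighbour, and lay above Ttr at 83.5 ± 31.1, which overlapped Apom at 53.9 ± 2.52. Afp at 33.4 ± 12.7 lay below Apom in every library, and Afp, Apoc3, Apob and Apoh did not differ beyond their spread from the next in the order. In both models Apoa2 took the second place, at 445 ± 38.7 in MODEL1 and 558 ± 74.3 in MODEL2, ahead of Apoa1 at 295 ± 66.3 and 284 ± 45.8. Apob, the longest of the genes with 13.934 kilobases of exon, moved from the ninth place in CTRL to the fifth in MODEL1, at 61.6 ± 13.7 against 29.6 ± 5.22.

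**Figure D3:**
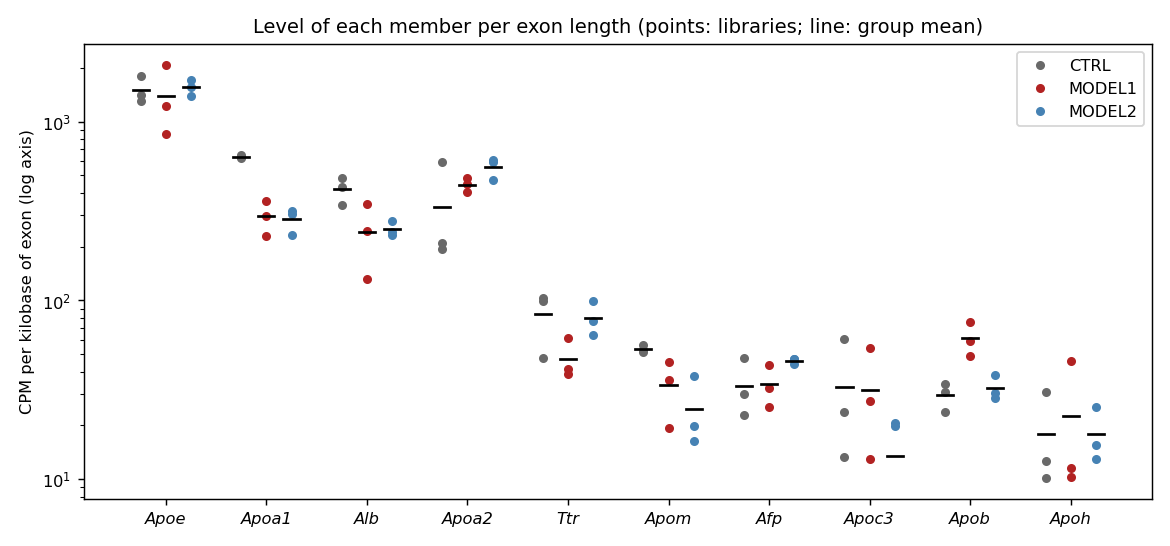
CPM per kilobase of exon (log axis) of each gene in every library, ordered by the CTRL mean, with a line at each group mean. Apoe is highest in each group, and the 1 library with 0 counts of Apoc3, in MODEL2, enters the mean and cannot be drawn on the log axis.

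Pooled, the 10 genes held 0.349% to 0.736% of a library's counts. The pooled share averaged 0.590% ± 0.0861 (SD, n = 3) for CTRL, 0.526% ± 0.195 for MODEL1 and 0.534% ± 0.0539 for MODEL2. The groups overlapped, and the lowest and highest of all libraries were MODEL1 replicates 1 and 2. Apoe made up 54.3% ± 2.95 of the pool in CTRL, 55.3% ± 4.62 in MODEL1 and 62.4% ± 1.29 in MODEL2, so the sum mostly followed Apoe. Without it the share was 0.269% ± 0.0336, 0.230% ± 0.0615 and 0.201% ± 0.0217, and every MODEL2 library lay below every CTRL library.

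The makeup of the pool moved more than its size. Alb went from 16.8% ± 3.42 of the pooled counts in CTRL to 10.5% ± 1.43 in MODEL1 and 11.0% ± 0.201 in MODEL2, and Apoa1 from 13.5% ± 2.04 to 7.19% ± 1.03 and 6.59% ± 1.11. Apob made up 7.0% ± 0.951, 16.9% ± 2.58 and 8.40% ± 0.523. These shares rest on the same counts as the tests above and are a description. The ratio of Alb to Apob counts within a library was 3.40, 1.88 and 2.13 in CTRL, 0.452, 0.760 and 0.689 in MODEL1 and 1.21, 1.34 and 1.39 in MODEL2. In this ratio the 3 groups did not overlap. All count ratios between members given here were chosen after the values were seen.

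**Figure D4:**
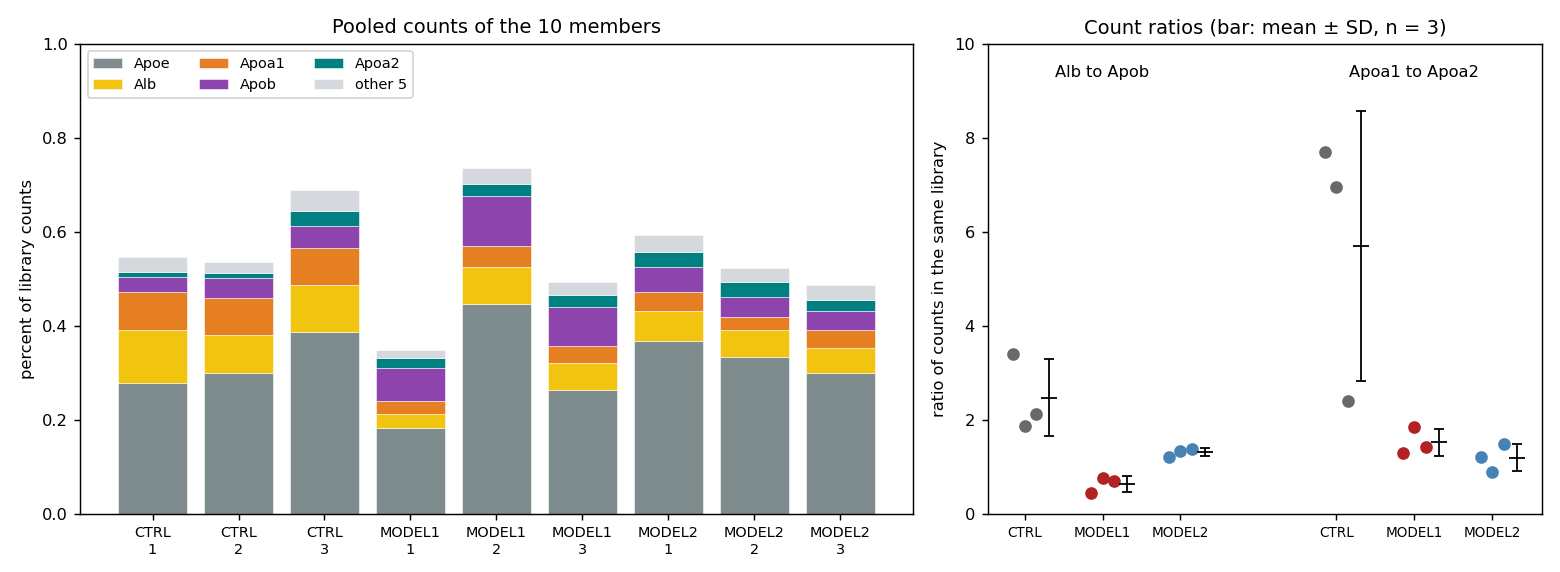
Left, the pooled counts of the 10 genes as a percent of library counts (vertical axis, from 0), stacked by gene for each library. Right, count ratios of Alb to Apob and of Apoa1 to Apoa2 within each library with mean ± SD; the Alb to Apob ratio is at 1.88 or above in CTRL, 0.760 or below in MODEL1 and between these in MODEL2.

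Other apolipoproteins mostly lacked the counts for a test. Of 15 listed, 3 were tested and 3 had no count in any library. Of the 3 tested, 2 fell in MODEL1, where 11.0% of all tested genes were called lower, and 1 was higher in MODEL2 than in MODEL1, where 3.87% were called higher. Apoa5, which promotes triglyceride clearance, held 20, 16 and 18 counts in CTRL and 8, 4 and 0 in MODEL1, and fell by 2.33 ± 0.65 log2 units (adjusted p = 0.0112), a call lost when age was added to the model (0.113) or the 3 libraries with the most Rn45s were dropped (0.131). It held 10, 10 and 12 counts in MODEL2, where its change of -0.84 ± 0.58 did not pass (0.388). Apon held 23, 27 and 35 counts in CTRL and 9, 5 and 13 in MODEL1, and fell by 1.90 ± 0.47 (adjusted p = 0.00472). At 24, 11 and 43 counts in MODEL2, Apon was higher there than in MODEL1 by 1.67 ± 0.47 log2 units (0.0359). That call was lost without any 1 of MODEL1 replicates 1 (0.0690), 2 (0.158) and 3 (0.0651) or MODEL2 replicates 1 (0.0652) and 3 (0.284). It was also lost with age in the model (1.17, adjusted p = 0.287), with library totals alone (0.0668) and without the 3 libraries with the most Rn45s (0.127), and it passed in 10 of 19 alternatives. Apoc1, which lies in the same cluster as Apoe, had changes of -0.06 ± 0.38 (MODEL1) and -0.09 ± 0.39 (MODEL2).

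Among 19 other plasma carriers, 17 were in the table and 8 were tested, and 1 fell in each model while none rose. Over all tested genes 11.0% were called lower in MODEL1 and 4.96% in MODEL2. Their median log2 fold change was -0.63 (MODEL1) and -0.14 (MODEL2). Mup3, a major urinary protein of a family of near-identical genes that can share reads, held 43, 24 and 37 counts in CTRL and 5, 3 and 14 in MODEL1, and fell by 2.48 ± 0.45 log2 units (adjusted p = 0.000273). It was higher in MODEL2 than in MODEL1 by 1.63 ± 0.47 (0.0387), a call lost without MODEL1 replicate 1 (0.106) or 2 (0.169) or MODEL2 replicate 1 (0.156) or 3 (0.11). Age in the model (0.116), library totals alone (0.0669) and leaving out the 3 libraries with the most Rn45s (0.0798) ended it too, and it passed in 12 of 19 alternatives. Ahsg, fetuin-A, fell by 1.01 ± 0.32 log2 units in MODEL2 (0.0408), with 66, 45 and 45 counts in CTRL and 41, 20 and 22 in MODEL2. This call was lost without CTRL replicate 1 (0.174) or 2 (0.0577), MODEL1 replicate 3 (0.0581), or MODEL2 replicate 2 (0.164) or 3 (0.165). With age in the model the change was -0.22 (adjusted p = 0.936). The call was also lost with library totals alone (0.0810), no filter (0.204), a filter of 1 CPM (0.132) and without the 3 libraries with the most Rn45s (0.234), and it passed in 8 of 19 alternatives. Ahsg held 346 counts over the 9 libraries, and Gm30505, which shares exon bases with it on the opposite strand, held 164390, the most of any symbol. Transferrin (Trf), the iron carrier, had changes of -0.59 ± 0.29 (MODEL1) and -0.20 ± 0.28 (MODEL2), and retinol-binding protein (Rbp4), the partner of transthyretin, of -0.80 ± 0.44 and -0.69 ± 0.44. Neither gene passed in either model.

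Of 22 genes of lipoprotein assembly, remodelling and clearance, 6 were tested. In each model 1 of them fell, beside 11.0% (MODEL1) and 4.96% (MODEL2) of all tested genes called lower. Lsr, the lipolysis-stimulated lipoprotein receptor, which takes up apolipoprotein B and E particles, held 293, 182 and 163 counts in CTRL, 38, 45 and 86 in MODEL1 and 67, 80 and 128 in MODEL2. It fell by 2.17 ± 0.29 log2 units in MODEL1 (adjusted p = 7.0e-06) and by 1.29 ± 0.28 in MODEL2 (0.00275). The MODEL2 call was lost with age in the model (-1.26 ± 0.64, adjusted p = 0.447), where the change hardly moved and its error grew. No other tested gene of the list passed in either model. Pltp, the phospholipid transfer protein, came nearest, at 0.53 ± 0.21 in MODEL1 (0.0686). Mttp, which loads lipid onto apolipoprotein B, was below the filter. Lsr shares exon bases with Gm17077 and Gm4673 on the opposite strand, neither of which is among the counted symbols. The same holds for Apoa5 with Gm47544 and for Prox1, named below, with Prox1os. Also named below, Cebpb shares such bases with Tmem189 (169 against 6 counts) and Eng with Fpgs (644 against 152). The part of these overlaps in the values was not tested.

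Of 19 regulators of liver secretory genes, 7 were tested. In MODEL1 3 fell and in MODEL2 1 fell, beside 11.0% and 4.96% of all tested genes called lower. Onecut1 (hepatocyte nuclear factor 6) held 40, 24 and 19 counts in CTRL and 2, 3 and 0 in MODEL1, and fell by 4.16 ± 0.77 log2 units (adjusted p = 0.000334). Without the 3 libraries with the most Rn45s this was -2.94 (0.0924). MODEL2 was uneven, with 35, 3 and 23 counts. It was higher than MODEL1 by 3.60 ± 0.79 (0.00719), a call lost without MODEL2 replicate 1 (0.0549) or without the same 3 libraries (0.198). Prox1 fell by 1.33 ± 0.45 (0.0362), a call lost without CTRL replicate 1 (0.113) or 3 (0.0791) or MODEL1 replicate 1 (0.123) or 3 (0.0929). It was also lost with library totals alone (0.0985), no filter (0.0870), a filter of 1 CPM (0.0616), age in the model (0.330) and without the 3 libraries (-0.81, adjusted p = 0.547), and it passed in 9 of 19 alternatives. Cebpb, an acute phase factor, fell by 1.21 ± 0.43 in MODEL1 (0.0470) and by 1.64 ± 0.45 in MODEL2 (0.0173). The MODEL1 call was lost without CTRL replicate 1 (0.251) or 2 (0.0653), MODEL1 replicate 1 (0.129) or 2 (0.145), or MODEL2 replicate 3 (0.0552), and the MODEL2 call without CTRL replicate 1 (0.142) or MODEL2 replicate 2 (0.0875) or 3 (0.0591). With age in the model the Cebpb changes were -0.36 (adjusted p = 0.822) and -0.31 (0.936), and without the 3 libraries -1.32 (0.329) and -1.27 (0.185). The MODEL1 call was lost as well with DESeq2 (0.0643), library totals alone (0.107), no filter (0.109), a filter of 1 CPM (0.0799) and a fit of only the 2 groups compared (0.0617). It passed in 6 of 19 alternatives, and the MODEL2 call in 14. Cebpa, which drives many hepatocyte genes, had changes of -0.35 ± 0.27 and -0.14 ± 0.27 that did not pass. Of 11 oncofetal genes only Igf2bp3 was tested and it did not pass (adjusted p = 0.874 in MODEL1 and 0.548 in MODEL2). Gpc3, Lin28b, Cd24a, Spp1 and Epcam had no count in any library.

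Markers of other liver cells were at low counts. The 8 macrophage markers summed to 30.2 to 60.6 CPM in CTRL, 70.7 to 137 in MODEL1 and 34.7 to 56.4 in MODEL2, with Adgre1 at 0 throughout. The 6 endothelial markers summed to 296 to 404, 154 to 323 and 204 to 419 CPM. Of these only Eng (endoglin) was tested. It held 83, 91 and 82 counts in CTRL, 45, 45 and 68 in MODEL1 and 50, 96 and 84 in MODEL2, and fell by 0.95 ± 0.28 log2 units in MODEL1 (adjusted p = 0.0164). That call was lost without CTRL replicate 2 (0.0558), MODEL1 replicate 1 (0.0598) or 2 (0.0532), with library totals alone (0.0738), with age in the model (0.140) and without the 3 libraries with the most Rn45s (0.167). The 7 stellate and fibroblast markers summed to 8.08 to 13.4 CPM in CTRL, 19.7 to 24.6 in MODEL1 and 0 to 8.05 in MODEL2, and the 5 cholangiocyte markers to 0 counts in CTRL, 3 to 4 in MODEL1 and 0 to 1 in MODEL2, with Krt7 and Epcam at 0 throughout. In MODEL1, where Alb and Apoa1 were lower, the small macrophage, stellate and cholangiocyte sums lay above CTRL without overlap. Of single tested genes 21.8% did so, but that share does not cover sums of markers below the filter, as these are. In MODEL2 Alb and Apoa1 were lower too. There the macrophage sums overlapped CTRL and the stellate sums lay just below it. The cholangiocyte sums of MODEL1 lie at or just above the floor of 3 counts. In MODEL1 the endothelial sums overlapped CTRL, although Eng was lower. So did those of the 5 lymphocyte markers (3.36 to 16.4 CPM in CTRL and 4.56 to 9.23 in MODEL1). The 3 neutrophil markers in the table overlapped too, at 0 counts in CTRL and 0 to 1 in MODEL1. The 8 tested hepatocyte markers hold 4 members (Alb, Ttr, Apoa1 and Apoa2). Of the 4 others, Fga, a chain of fibrinogen, fell by 1.15 ± 0.33 log2 units in MODEL1 (adjusted p = 0.0143), with 61, 28 and 69 counts in CTRL and 20, 22 and 42 in MODEL1. That call was lost without CTRL replicate 3 (0.0684), MODEL1 replicate 1 (0.0634) or 2 (0.0515), with library totals alone (0.0579) and without the 3 libraries with the most Rn45s (0.179). Cyp2e1 (0.04 ± 0.33), Hpd (-0.19 ± 0.47) and Tdo2 (-0.84 ± 0.51) did not pass in MODEL1, and none of the 4 passed in MODEL2. The part of the cell makeup in these results was not tested.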

How the data were processed

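RNA-seq libraries came from liver of 9 mice, with 3 mice to each of CTRL, MODEL1 and MODEL2. The deposited table gives raw counts by symbol in 1 column per library, not normalized. The submitters' processing notes name HTSeq 0.11.2, HISAT2 2.1.0, Trimmomatic 0.38 and build mm10. The role of each tool, the annotation, the library kit and the strand setting are not given in the sources used here. The labels do not say whether the mice of a group were littermates or were processed together, so p-values measure the spread between these samples.

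The filter (filterByExpr, minimum count 10), TMM scaling and quasi-likelihood test of edgeR 4.0.16 (R 4.3.3) were run once, with every library in the model and a term per group. Benjamini-Hochberg adjustment covered the 2639 tested genes, with a threshold of 0.05. Tests were two-sided, and a standard error (SE) is the size of the log2 fold change divided by the square root of F. The procedure was also run on counts simulated with known changes and a single spread for all genes. That setting held no differences in Rn45s share, age or strand. CPM values are counts scaled to library totals, which ran from 219504 to 325177. DESeq2 1.42.0 was an alternative. Ratios of summed counts have exact 95% Poisson intervals on scaled library sizes. Such intervals cover counting error only.

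Gene positions and exon lengths come from GENCODE M21 on mm10. The 10 members and all gene lists were chosen with earlier results of these data known. The members were always named. From each list the called genes were named, up to 3 per comparison by size of change. The 5 genes most like the pooled counts, above a floor of log2 CPM 6, were also named. Some listed genes and a planned motif are not reported here.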

Additional observations from a re-analysis of the deposited data

Results flagged for a closer look

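Apob met the test of a difference between the models, with a log2 fold change of -0.87 ± 0.22 in MODEL2 against MODEL1 (adjusted p = 0.0155, edgeR). All 3 MODEL2 libraries, at 394 to 534 CPM, lay below all 3 MODEL1 libraries, at 684 to 1061 CPM. The MODEL1 mice were younger than the MODEL2 mice, and the cause was not tested.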

How the results depend on the processing

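Alb, Apoa1 and Apob kept their direction under all 19 alternatives in each comparison where they were called. Without the 3 libraries with the most Rn45s, MODEL1 kept 1 library, with changes of -0.47 for Alb, -1.12 for Apoa1 and 0.92 for Apob. The number of members called in MODEL1 (3) ranged from 3 to 4 when single libraries were left out. It was 2 with age as a covariate, where Alb lost its call. In MODEL2 (2) it ranged from 1 to 3, and was 1 with library totals alone, 0 with age as a covariate and 1 without those 3 libraries. Between the models (1) it ranged from 0 to 1, and was 0 with no filter, 0 with a filter of 1 CPM, 0 with age and 0 without the 3 libraries. Over all genes, calls went from 602, 350 and 192 in the 3 comparisons to 299, 71 and 101 with age and to 299, 210 and 62 without the 3 libraries. The log2 ratio of pooled counts moved from -0.16 to 0.26 in MODEL1 and from 0.02 to -0.46 between the models without the 3 libraries, and from -0.14 to -0.42 in MODEL2 with Apoe left out, an alternative chosen after seeing the data. With single libraries left out it ran from -0.48 (without MODEL1 replicate 2) to 0.06 (without MODEL1 replicate 1) in MODEL1, from -0.23 (without MODEL2 replicate 1) to -0.02 (without CTRL replicate 3) in MODEL2 and from -0.20 (without MODEL1 replicate 1) to 0.34 (without MODEL1 replicate 2) between the models. The ages of the 3 groups do not overlap, so the fit with age cannot tell age from group. The causes were not tested.

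Changes of sign in the fits concerned only members that were not called. With library totals alone, which move the median of all genes by 0.16 in MODEL1 and 0.10 in MODEL2, Afp was 0.047 in MODEL1, and Apoe was 0.043 and Apoh 0.0012 in MODEL2. With age, Apoa2 was -0.23 and Apoh -0.82 in MODEL1, Afp -0.085, Apoa2 -0.26 and Apoe 0.0015 in MODEL2, and Apoa1 0.13 and Apoa2 -0.024 between the models. Without the 3 libraries, Apoa2 was -0.11 and Apoe 0.078 in MODEL1, Apob -0.047 and Ttr 0.073 in MODEL2, and Alb -0.19 and Apoe -0.16 between the models. Apob in MODEL2 was -0.0055 with DESeq2 and -0.0063 with RLE size factors. Apoe in MODEL2 was 0.014 with no filter and 0.025 with a filter of 1 CPM, and Apoa1 between the models was 0.075 and 0.070. With single libraries left out, Afp ran from -0.33 to 0.12 and Apoh from -0.71 to 0.62 in MODEL1. In MODEL2 Apob ran from -0.14 to 0.15, Apoe from -0.15 to 0.058, Apoh from -0.36 to 0.44 and Ttr from -0.41 to 0.052. Between the models Alb ran from -0.085 to 0.37, Apoa1 from -0.12 to 0.12 and Apoh from -0.51 to 0.62.

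Libraries with the same replicate number did not deviate together. Their correlations were -0.10 to 0.03 over 9 pairs, against -0.06 to 0.08 over 18 pairs of different numbers. With 3 libraries a group these values cannot settle whether the numbers pair the mice, and the labels do not say. With the replicate block 3, 2 and 1 members were called in the 3 comparisons, as without it, and 543, 290 and 125 genes in all. Among the other named genes the block ended the calls of Cebpb (0.0794) and Prox1 (0.0591) in MODEL1, Ahsg (0.0576) in MODEL2 and Apon (0.0502) between the models. Members with 4 to 16 counts a library, such as Apom and Apoh, have SEs of 0.52 to 0.66 against CTRL.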

Other observations

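The 5 genes whose log2 CPM (with a pseudocount of 1 CPM) followed the pooled level of the 10 genes most closely over the 9 libraries, out of 1847 genes above a floor of log2 CPM 6, were Mamdc4 (Pearson r = 0.901, Spearman rho = 0.800), Cpn1 (0.897 and 0.767), Vps4a (0.895 and 0.733), Arf1 (0.889 and 0.467) and Kin (0.888 and 0.933). These are the highest of many values from libraries that share their depth and Rn45s content, and are given as a description without a test. Cpn1 encodes a liver-made plasma carboxypeptidase subunit. It averaged 103 ± 12.7 CPM (SD, n = 3) for CTRL, 89.7 ± 44.1 for MODEL1 and 105 ± 15.9 for MODEL2.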
